A study of Homo sapiens with 6 samples.

Results

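The ephrin ligands are the 8 genes EFNA1, EFNA2, EFNA3, EFNA4, EFNA5, EFNB1, EFNB2 and EFNB3, and they were followed in AGS cells after silencing of C1GALT1. AGS is an established human gastric adenocarcinoma line, and C1GALT1 encodes the enzyme that extends the Tn antigen to the core 1 structure of GalNAc-type O-glycans. Total RNA was taken 48 h after transfection with a nontargeting siRNA (si-Control, 3 samples) or with the C1GALT1-specific siRNA si-C1GALT1-3 (3 samples). Both groups were the same unmodified cell line grown in serum-containing medium, and since 1 siRNA sequence was used here, an effect of C1GALT1 and an effect of that sequence cannot be told apart. A one-colour Agilent array was run for every sample. Members were found through the RefSeq accession that the array gives for each probe, and each of the 8 genes had 1 probe, so 8 of 58201 gene probes and 17 of 60901 gene spots per array belonged to an ephrin.

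Ephrins are membrane-bound ligands of the EPH receptor tyrosine kinases, so that signaling takes place where neighbouring cells touch. Class A ephrins are held in the membrane by a glycosylphosphatidylinositol (GPI) anchor, and class B ephrins cross the membrane and carry a cytoplasmic tail that can signal back into the cell that bears them. Proteases can release class A ephrins from the surface, and in epithelia ephrins and their receptors take part in cell sorting, adhesion and migration.

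EFNA3 was the ephrin that changed after silencing of C1GALT1. Its signal rose 2.60-fold, at p under 0.01 and at least 2-fold in limma, the threshold used here for a changed probe. EFNA1, the ligand whose protein the study applied to cells as a soluble Fc fusion, was higher on all si-C1GALT1-3 arrays with a fitted ratio of 1.87, and EFNA4 was higher with a fitted ratio of 1.63, and neither passed 2-fold. EFNA1, EFNA3 and EFNA4 lie side by side on chromosome 1. EFNA2, EFNA5 and the class B ephrins EFNB1, EFNB2 and EFNB3 had overlapping groups and did not pass the test. In all, 1 of 8 ephrins changed, where 2.64% of the 58195 probes tested did. In 3 of 8 ephrins every si-C1GALT1-3 value lay above every si-Control value, which was so for 11% of all probes, and in none of the 8 did every value lie below, which was so for 10.4%. EFNA4, 1 of the 3, had 2 si-Control values, and groups separate more easily with fewer values. No ephrin had an adjusted p under 0.05, and that of EFNA3 came closest at 0.0823 (limma, Benjamini-Hochberg adjustment across the 58195 probes). Over all probes 49 had an adjusted p under 0.05, the smallest being 0.0499, and this count was 0 under 13 of 19 alternative settings.

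The genes of EFNA4, EFNA3 and EFNA1 follow each other on chromosome 1 and all read from the + strand. The 250 bases before each start, taken from RefSeq (GRCh38.p14), are shown because these are the 3 ephrins whose groups did not overlap. Capitals mark the GC box, searched as GGGCGG and, for the other strand, as CCGCCC, and neighbouring boxes may share bases. The windows lie at chr1:155063490-155063739 for EFNA4, chr1:155078587-155078836 for EFNA3 and chr1:155127626-155127875 for EFNA1.
EFNA4: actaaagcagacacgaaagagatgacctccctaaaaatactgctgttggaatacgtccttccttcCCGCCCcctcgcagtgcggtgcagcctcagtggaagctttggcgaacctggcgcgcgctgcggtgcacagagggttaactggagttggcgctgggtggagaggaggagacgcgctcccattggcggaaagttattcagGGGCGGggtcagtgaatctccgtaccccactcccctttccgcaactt
EFNA3: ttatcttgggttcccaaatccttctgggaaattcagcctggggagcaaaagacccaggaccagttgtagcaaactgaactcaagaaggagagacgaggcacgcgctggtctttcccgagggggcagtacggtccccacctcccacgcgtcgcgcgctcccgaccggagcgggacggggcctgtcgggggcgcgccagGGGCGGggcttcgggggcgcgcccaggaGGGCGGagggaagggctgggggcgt
EFNA1: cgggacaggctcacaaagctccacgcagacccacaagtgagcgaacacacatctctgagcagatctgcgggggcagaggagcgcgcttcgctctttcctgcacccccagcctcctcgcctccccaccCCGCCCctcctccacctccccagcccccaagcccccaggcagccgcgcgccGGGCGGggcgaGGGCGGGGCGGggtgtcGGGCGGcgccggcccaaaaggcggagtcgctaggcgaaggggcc
The windows held 2, 2 and 5 GC boxes, respectively. A promoter was found in the RefSeq table for 7 of the 8 ephrins, all but EFNB3, and each of the 7 held at least 1 GC box, which 42.3% of all 27305 promoters did. The 7 windows had a GC content between 58.4% for EFNA4 and 84% for EFNA2, where the median over all promoters was 58%, and between 15 and 41 CpG pairs, where the median was 11. CCAAT, searched on both strands like the motifs that follow, was found in EFNA4, EFNB1 and EFNB2, and in 33.0% of all promoters. TATAAA was found in EFNB2 and in 11.1% of all promoters. ACGTG, the core of the hypoxia response element, was found in none of the 7 and in 18.7% of all, and an interferon-stimulated response element word in none and in 3.07%. The windows of EFNA4, EFNA3 and EFNA1 shared the GC box and none of the other 4 motifs, and the GC box was also in the windows of the 4 ephrins whose groups overlapped.

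The arrays had between 66.2% and 72.7% of gene spots well above background by the scanner software, no gene spot was saturated, and precision is limited by the number of arrays. The labels do not say whether the 3 samples of a group came from separate cultures, so p-values measure the spread between these samples only, which may be technical. On each of the 3 slides the si-Control array and the si-C1GALT1-3 array of the same number lay side by side in the same order, so that position and treatment cannot be told apart. In bulk RNA, fewer cells expressing a gene and less RNA per cell cannot be told apart either. The 4 epithelial markers EPCAM, KRT8, KRT18 and KRT19 were well above background on all 6 arrays, and none of them passed the test. Their summed normalized signal ran from 414382 to 646374 on si-Control arrays and from 327636 to 583252 on si-C1GALT1-3 arrays. Of 7 markers of leukocytes, fibroblasts and endothelium, 6 were read well above background throughout at least 1 group and none passed the test. Their summed signal was 14567 and 23125 on the 2 si-Control arrays with all 7 measured and 15220 to 15961 on si-C1GALT1-3 arrays, and their part in the ephrin values was not tested. COL3A1, a fibroblast collagen, was at 1.17 (SE 0.46, adjusted p = 0.350 by limma), higher on all 3 slides and with overlapping groups. Of the 5 probes of PTPRC, a leukocyte gene, the brightest was at -0.33, and 2 dimmer ones rose past the threshold, by 1.90 and 2.41, the latter with no si-Control array well above background.

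One si-Control array, replicate 2, had a region in its centre with low signal, and this region held several ephrin spots. Of the gene spots, 9712 (15.9%) lay in it, and their signal stood at a median of -2.19 on the log2 scale against the other si-Control arrays, compared with -0.059 outside it. The EFNA1 probe was printed at 10 positions and shows the defect directly. On si-Control replicate 2, its 7 spots outside the region read between 2808 and 3838, and its 3 spots inside read 25.7, 28.0 and 960. On the other 5 arrays the SD over the same 10 positions was between 0.027 and 0.076 on the log2 scale, where it was 2.94 on si-Control replicate 2 and 0.160 once the 3 spots were left out. The spots of the region were therefore set to missing on that array. The single spots of EFNA2 and EFNA4 lay inside it, which leaves these genes with 2 si-Control values. The single spot of EFNB1 lay just outside it.

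**Figure D1:**
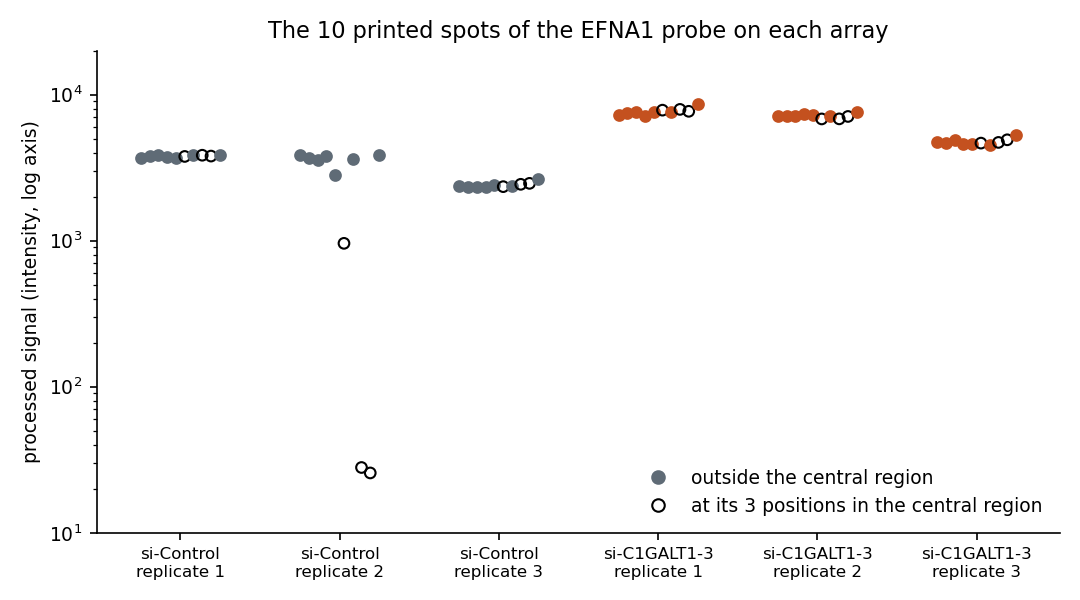
Processed signal (scanner intensity, log axis) of the 10 printed spots of the EFNA1 probe on each of the 6 arrays, with open circles for the 3 positions that fall in the central region. On si-Control replicate 2 the 3 open circles read 25.7, 28.0 and 960 while the 7 others read 2808 to 3838; on the other 5 arrays all 10 spots lie together.

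In the knockdown check, C1GALT1 read 12.22, 13.03 and 12.62 on the log2 scale in si-Control and 11.76, 11.98 and 11.13 in si-C1GALT1-3. All 3 si-C1GALT1-3 values were lower, by 1.00 on the log2 scale (SE 0.31), with an adjusted p = 0.265 by limma. This difference did not pass an unadjusted p under 0.01.

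EFNA3, a class A ephrin that binds EPHA receptors, had normalized log2 signals of 11.19, 11.44 and 11.02 in si-Control and 12.69, 12.69 and 12.41 in si-C1GALT1-3. The lowest si-C1GALT1-3 array lay well above the highest si-Control array, and the gap between the groups exceeded the spread within either of them (SD 0.21 and 0.16, n = 3 each). The log2 fold change was 1.38 (SE 0.17, 95% interval 0.96 to 1.80), with an adjusted p = 0.0823 by limma. Within slides 1, 2 and 3 the difference was 1.50, 1.25 and 1.39. The change was also there before any normalization between arrays. The processed signal was 2824, 2594 and 1604 in si-Control and 7555, 7338 and 4648 in si-C1GALT1-3, a ratio of 2.68, 2.83 and 2.90 within slides 1, 2 and 3. The median ratio over all gene probes on these slides was 0.851, 1.11 and 1.14. EFNA3 passed the threshold under each of the 19 alternative settings that could change its value, with log2 fold changes between 1.28 and 1.49.

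EFNA1, the prototypic ligand of EPHA2, had normalized log2 signals of 11.60, 11.91 and 11.59 in si-Control and 12.71, 12.65 and 12.44 in si-C1GALT1-3. The groups did not overlap. The log2 fold change was 0.90 (SE 0.16, 95% interval 0.51 to 1.30), with an adjusted p = 0.125 by limma. It passed an unadjusted p under 0.01 but not 2-fold, and the interval holds the 2-fold threshold of 1. Within slides 1, 2 and 3 the normalized difference was 1.12, 0.74 and 0.85. The processed signal before normalization was 3790, 3581 and 2405 in si-Control and 7676, 7158 and 4760 in si-C1GALT1-3, and its ratio was 2.03, 2.00 and 1.98 within the 3 slides. EFNA1 thus lay at the threshold, and its call moved with si-Control replicate 2. With the central region kept, the log2 fold change was 1.34 (SE 0.31, adjusted p = 0.321 by limma). That value takes in the 3 EFNA1 spots that read 25.7, 28.0 and 960 on this array. Without this array the log2 fold change was 1.01, and both settings passed. A fit with the replicate number as a block and without normalization between arrays, chosen after seeing the data, gave 1.00 and passed as well. Under these 3 settings 2 of 8 ephrins changed. Of all probes, 1180 of 58196, 1613 of 58193 and 2209 of 58190 changed under them, in the same order. With no normalization and no block EFNA1 was also at 1.00, but its p of 0.0202 by limma was not under 0.01. This was the 1 of 19 alternative settings in which EFNA1 missed that p.

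EFNA4, a class A ephrin with GPI-anchored and shorter secreted forms, read 12.65 and 12.89 on si-Control replicates 1 and 3 and 13.40, 13.46 and 13.57 in si-C1GALT1-3. All 3 si-C1GALT1-3 values lay above both si-Control values. The log2 fold change was 0.71 (SE 0.17, 95% interval 0.27 to 1.14), with an adjusted p = 0.207 by limma. EFNA4 passed an unadjusted p under 0.01 but did not reach 2-fold. The unnormalized ratio was 1.56 on slide 1 and 1.69 on slide 3. It kept this p in 7 of 19 alternative settings and lost it in 12, among them 5 of the 6 fits with an array left out, where the log2 fold change was between 0.59 and 0.83. The 1 such fit that kept it left out si-Control replicate 2, where the EFNA4 spot was already missing, so the EFNA4 values were unchanged. The spot of the central region read 1188, where the other si-Control arrays read 7892 and 6132. With it kept, the log2 fold change was 1.42 with a much wider error (SE 0.62) and no longer passed p under 0.01.

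EFNA2 and EFNA5 are the remaining class A ephrins, best known for guiding axons. EFNA2 read 8.86 and 8.24 on si-Control replicates 1 and 3 and 8.81, 8.79 and 8.37 in si-C1GALT1-3. The groups overlapped, with a log2 fold change of 0.11 (SE 0.28, 95% interval -0.61 to 0.83, adjusted p = 0.924 by limma). EFNA5 read 9.78, 10.25 and 10.04 in si-Control and 9.30, 9.28 and 10.17 in si-C1GALT1-3. On si-C1GALT1-3 replicates 1 and 2 EFNA5 was below every si-Control array, and replicate 3 lay among them, with a log2 fold change of -0.44 (SE 0.29, 95% interval -1.16 to 0.28, adjusted p = 0.570 by limma). Without si-C1GALT1-3 replicate 3 EFNA5 was at -0.73, and without si-C1GALT1-3 replicate 1 or 2 at -0.30 and -0.29, and it passed under none of them.

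None of the class B ephrins passed the test. EFNB2, the ligand of EPHB4 in vessel formation, read 13.43, 13.44 and 13.46 in si-Control and 13.37, 13.68 and 13.73 in si-C1GALT1-3, a log2 fold change of 0.15 (SE 0.15, 95% interval -0.22 to 0.51, adjusted p = 0.715 by limma). This interval lies below the 2-fold threshold on both sides. EFNB1, the ligand affected in craniofrontonasal syndrome and one that helps position cells along the intestinal crypt, read 11.79, 11.06 and 11.74 in si-Control and 10.97, 11.00 and 11.85 in si-C1GALT1-3. Its log2 fold change was -0.25 (SE 0.33, 95% interval -1.08 to 0.57, adjusted p = 0.799 by limma), and the slide differences were -0.82, -0.05 and 0.11. With an array left out EFNB1 was between -0.10 (without si-C1GALT1-3 replicate 1) and -0.54 (without si-C1GALT1-3 replicate 3). The value on si-Control replicate 2, the lowest of its group, came from the spot beside the central region. With a wider mask that takes in this spot, chosen after seeing the data, EFNB1 had a log2 fold change of -0.49 (adjusted p = 0.576 by limma) and still did not pass.

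EFNB3, known from midline guidance of axons, was the 1 ephrin near background. Its probe was well above background on 1 of 3 arrays in each group. It read 3.59, 5.54 and 5.05 in si-Control and 5.08, 5.60 and 5.48 in si-C1GALT1-3, with a log2 fold change of 0.66 (SE 0.52, 95% interval -0.63 to 1.94, adjusted p = 0.640 by limma). A difference of this size could not be told from 0 at this precision, and EFNB3 was at 0.09 without si-Control replicate 1 and at 1.07 without si-Control replicate 2. The other 7 ephrins were well above background on all measured arrays of at least 1 group.

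**Figure D2:**
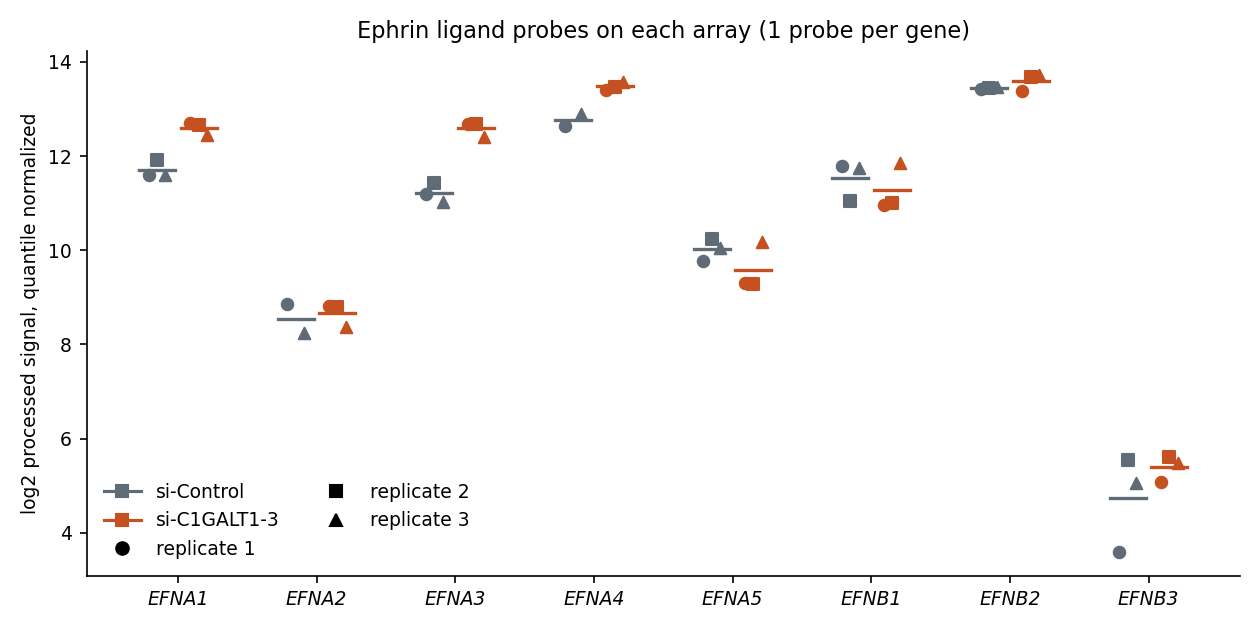
Normalized log2 processed signal of each ephrin probe on each array, with grey symbols for si-Control, orange symbols for si-C1GALT1-3, the symbol shape for the replicate and lines for group means. EFNA1, EFNA3 and EFNA4 have groups that do not overlap, EFNB3 lies near background, and levels of different probes are not comparable.

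Over the 8 ephrins the median log2 fold change was 0.40, with 6 above 0 and 2 below, where the median over all probes was -0.0048. Fitted changes ran from -0.44 for EFNA5 to 1.38 for EFNA3. Among probes well above background in a group, 1.96% changed upward, 1.19% changed downward and 13.8% had every si-C1GALT1-3 value above every si-Control value. Of the 7 ephrins in that class these counts were 1, 0 and 3. The last count includes EFNA4, which had 2 si-Control values.

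**Figure D3:**
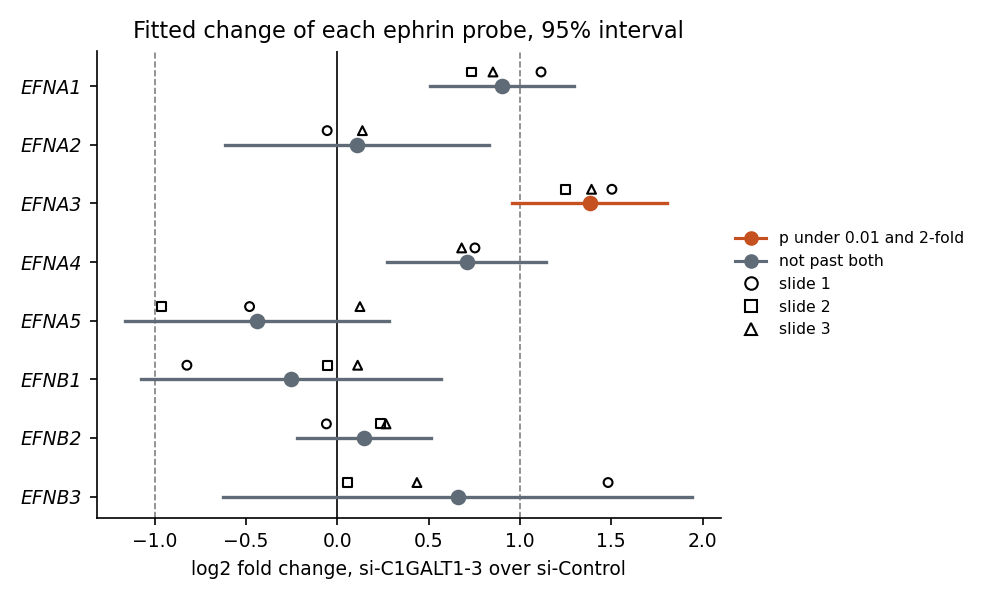
Fitted log2 fold change of each ephrin probe with its 95% interval (limma), small open symbols for the normalized difference within each slide, and dashed lines at 2-fold. EFNA3 at 1.38 is the 1 ephrin past p under 0.01 and 2-fold; EFNA1 at 0.90 and EFNA4 at 0.71 have intervals above 0 that cross the 2-fold line.

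The genes around EFNA4, EFNA3 and EFNA1 were read in the order of the RefSeq table. ADAM15, a membrane metalloprotease gene directly before EFNA4, had a log2 fold change of -0.49 (SE 0.14, adjusted p = 0.239 by limma) with all si-C1GALT1-3 values lower, and its other probe gave -0.70. SLC50A1, a sugar transporter gene directly after EFNA1, was at 0.58 (SE 0.17, adjusted p = 0.272 by limma) with all si-C1GALT1-3 values above the 2 si-Control values left, and at 2.88 with its spot in the central region kept. Neither passed the threshold, and the fitted values of these 2 flanking genes had opposite signs. The next genes, DPM3, KRTCAP2 and TRIM46, were at 0.23, 0.047 and -0.037 and had overlapping groups. A dimmer DPM3 probe gave -0.38, and dimmer TRIM46 probes gave -0.51 and 0.79, all with overlapping groups. MUC1, a membrane mucin that carries O-glycans and the fifth gene after EFNA1, rose by 2.34 (SE 0.44, adjusted p = 0.137 by limma). Its second probe gave 2.27. Without si-Control replicate 1 MUC1 was at 2.25 and no longer passed p under 0.01.

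Of 55 other genes within 5 genes of an ephrin that had a probe, 3 changed upward and 0 downward, where 1.65% of all probes changed upward and 0.991% downward, and their median log2 fold change was 0.043. The 3 were MUC1, TMEM88 near EFNB3 with 1.37 (SE 0.27, adjusted p = 0.140 by limma; 1.24 and no longer past p under 0.01 without si-C1GALT1-3 replicate 3), and EDA2R near EFNB1, whose probes stayed near background on every array. TMEM88, a membrane protein that acts in Wnt signaling, and EFNB3 lie on chromosome 17. RefSeq also lists a readthrough gene, EFNA4-EFNA3, to which no probe mapped. Whether the probes of EFNA4 and EFNA3 also detect this transcript was not tested.

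**Figure D4:**
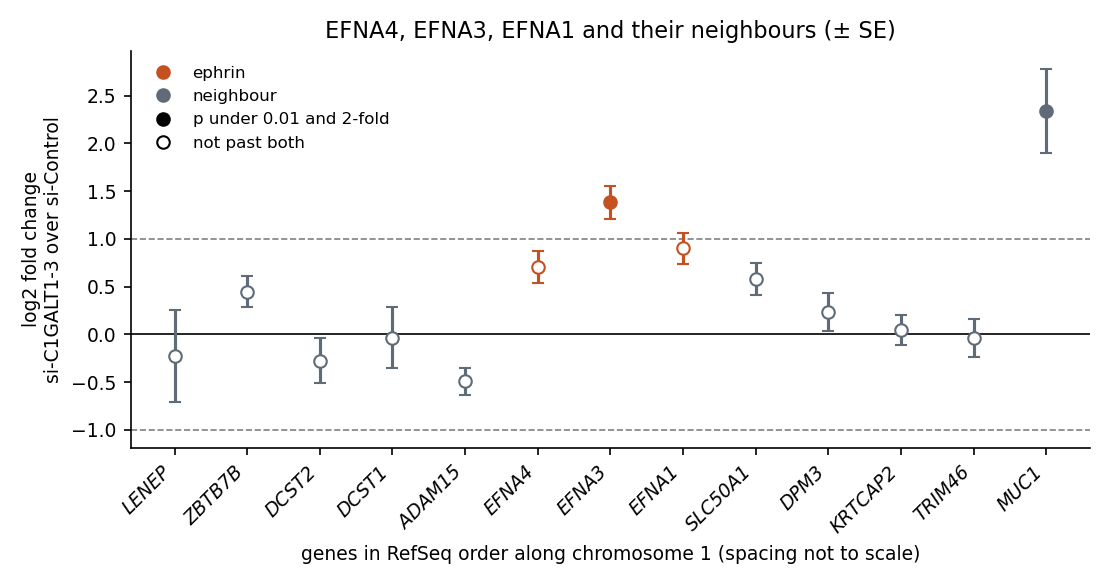
Log2 fold change (± SE) of EFNA4, EFNA3, EFNA1 and neighbouring genes with a probe, in RefSeq order along chromosome 1 with spacing not to scale; filled symbols passed p under 0.01 and 2-fold, and dashed lines mark 2-fold. The 3 adjacent ephrins lie at 0.71, 1.38 and 0.90 between ADAM15 at -0.49 and SLC50A1 at 0.58, and MUC1 lies at 2.34.

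None of the 14 EPH receptors, the kinases that ephrins bind, passed the threshold in either direction, where 2.64% of all probes did. Their median log2 fold change was -0.04. EPHA2, the receptor examined by the study, read 14.55 and 14.78 on si-Control replicates 1 and 3 and 14.37, 14.60 and 15.20 in si-C1GALT1-3. The groups overlapped, with a log2 fold change of 0.06 (SE 0.30, 95% interval -0.72 to 0.84, adjusted p = 0.969 by limma), and 0.92 (SE 0.77) with its spot in the central region kept. EPHA1 was at 0.67 (SE 0.26, adjusted p = 0.339 by limma), the highest value among receptors well above background. EPHA10, a receptor that lacks kinase activity, was at -0.95 (SE 0.20, adjusted p = 0.151 by limma) with all si-C1GALT1-3 values lower. Its 2 dimmer probes gave 0.56 and -0.20, so the probes of EPHA10 disagreed. EPHA10 passed 2-fold when the central region was kept or masked only after normalization, where it was at -1.06 (adjusted p = 0.302 and 0.217 by limma), and also without si-Control replicate 3 (-1.01) or without si-C1GALT1-3 replicate 3 (-1.10).

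Of the other receptors, EPHA4, EPHB3 and EPHB4 were at -0.04, -0.04 and 0.04, EPHB2 at 0.36, EPHA7 at 0.57, EPHA8 at -0.47 and EPHB6 at -0.14. EPHA3 (-2.50, SE 1.19), EPHA5 (1.25, 95% interval -1.46 to 3.96) and EPHA6 (-0.65) were well above background on some arrays only and had intervals that included 0. Without si-Control replicate 1, which leaves EPHA3 with 1 si-Control value, EPHA3 was at -4.30 (adjusted p = 0.230 by limma) and passed. No array read EPHB1 well above background. Of the ligand and receptor pairs, the groups of EFNA1 were separate while those of EPHA2 overlapped, and the groups of both EFNB2 and EPHB4 overlapped.

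**Figure D5:**
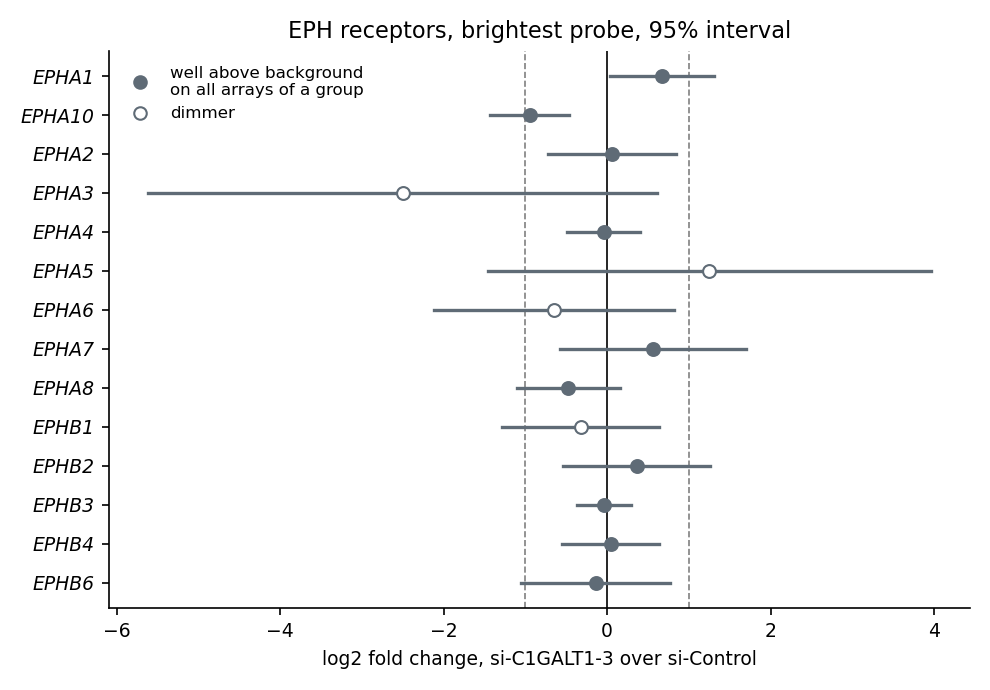
Log2 fold change of the brightest probe of each EPH receptor with its 95% interval (limma), filled where the probe was well above background on all measured arrays of a group, with dashed lines at 2-fold. None passed p under 0.01 and 2-fold, which 2.64% of all probes did. EPHA10 at -0.95 is the 1 receptor with all si-C1GALT1-3 values below all si-Control values, which was so for 10.4% of all probes.

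Further lists cover what happens to an ephrin after synthesis. None of 14 genes for proteases, or their subunits, known to cleave ephrins or their receptors passed the threshold, where 2.64% of all probes did. Their median log2 fold change was 0.00062. ADAM10, which cuts class A ephrins, was at 0.08 and ADAM17 at -0.0029. MMP1, an interstitial collagenase, was lowest at -1.79 (SE 0.48, adjusted p = 0.214 by limma) with all si-C1GALT1-3 values lower, just short of an unadjusted p under 0.01. MMP1 passed in 8 of 19 alternative settings, among them the fit with the replicate number as a block (-1.79) and the one without si-Control replicate 3 (-2.25). MMP13, another collagenase, was highest at 0.87 (SE 0.22, adjusted p = 0.203 by limma). It was well above background on 2 of 3 si-Control arrays and on all 3 si-C1GALT1-3 arrays, so its place rested on the si-C1GALT1-3 arrays. MMP14, well above background on all 6 arrays, was at 0.73 (SE 0.23, adjusted p = 0.272 by limma) with all si-C1GALT1-3 values higher. None of 9 genes that attach or remodel the GPI anchor passed, beside the same 2.64% of all probes. They ran from -0.34 for PIGK, the catalytic subunit of the transamidase that attaches the anchor, to 0.60 for PGAP3, which remodels its lipid. Their median was 0.15. These are the values of the brightest probes: a dimmer PIGK probe, well above background on all 6 arrays, fell by 1.06 (SE 0.14, adjusted p = 0.0869 by limma) and passed the threshold.

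Of 13 partners of class B ephrin tails, 1 changed, GRIP2, a scaffold with PDZ domains, where 2.64% of all probes changed in either direction and 1.65% upward. GRIP2 read 5.82, 5.82 and 6.57 in si-Control and 7.70, 7.29 and 7.66 in si-C1GALT1-3, and rose by 1.48 (SE 0.26, adjusted p = 0.124 by limma). The second GRIP2 probe gave 0.49 and a probe at background 0.029. In si-Control the second probe was the brighter (6.51 against 6.07), so the choice of the GRIP2 probe rested on the si-C1GALT1-3 arrays. PICK1, another PDZ scaffold, was lowest at -0.64 (SE 0.25), with 2 si-Control values. The median of the 13 was 0.10.

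Of 20 effectors of EPH receptors, 1 changed, which is near the 2.64% of all probes changed in either direction (0.991% downward). It was the adaptor CRKL, which fell by 1.76 (SE 0.34, adjusted p = 0.157 by limma). CRKL averaged 8.47 over si-Control replicates 1 and 3 and read 6.63, 6.94 and 6.56 in si-C1GALT1-3. Its spot lies in the central region, and with that spot kept its log2 fold change was -0.06 (SE 1.48). It also missed p under 0.01 with the replicate number as a block (-1.88) and without si-C1GALT1-3 replicate 1, 2 or 3, at -1.72, -1.88 and -1.69. NCK1, an adaptor that links receptors to actin, was highest at 0.93 (SE 0.25, adjusted p = 0.242 by limma), with 2 si-Control values. The median of the 20 was -0.06.

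For each of the 5 ephrins measured and well above background on all 6 arrays, the 3 genes of 14162 with the most similar pattern over the 6 arrays were listed by Pearson's r, as a description in which the difference between groups is included. For EFNA3 these were DYNC1I1 (r = 0.9995), NF1 (0.9987) and SAMHD1 (0.9984), with log2 fold changes of 2.11, 0.93 and 1.71. For EFNA1 they were DRAM1 (0.9988), LOC642361 (0.9984) and PHYH (0.9981), with log2 fold changes of 1.63, 0.82 and 0.80. These 6 genes were, like EFNA3 and EFNA1, higher in si-C1GALT1-3. For EFNA5 they were GALP (0.9961), CLEC4G (0.9872) and S100A16 (0.978), for EFNB1 CP (0.993), MYLK3 (0.9929) and NMUR1 (0.9856), and for EFNB2 TMEM131 (0.9704), GTF2H4 (0.9692) and MRPL30 (0.9595). These are the highest of 14162 values over 6 arrays each, and no test was made of them.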

How the data were processed

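The authors deposited, for each array, the output of Agilent Feature Extraction 10.5.1.1, in which values are fluorescence intensity per spot, corrected for background by that software and not normalized between arrays. A deposited table of the whole series gives these spots as background-subtracted intensity and served as an alternative, with values under 10 set to 10. From the processed intensity, log2 values were taken, control spots left out, and outlier spots (100 to 424 per array) and the central region of si-Control replicate 2 set to missing. Arrays were quantile normalized, spots of a probe averaged, and groups compared with limma 3.58.1 in R 4.3.3 (lmFit and eBayes), with Benjamini-Hochberg adjustment over 58195 probes. The threshold for a changed probe was an unadjusted p under 0.01 together with a 2-fold difference.

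Names came from RefSeq accessions (31104 probes with a symbol, 27097 without), and the brightest probe stood for a gene. Named genes were all ephrins, C1GALT1, the EPH receptors, the highest, lowest and changed members of each list, and the 3 genes most like each ephrin. MUC1, TMEM88, EDA2R, ADAM15, SLC50A1, DPM3, KRTCAP2, TRIM46, ADAM10, ADAM17, MMP14, PTPRC and second probes were chosen after their values were seen. The members and lists were chosen with earlier results of these data known. The scanner files place arrays of equal number on 1 slide, so the numbers pair the samples by slide. Deviations from the group means correlated at 0.198, 0.215 and 0.329 between arrays of equal number. Values for unlike numbers are not given here. The main fit compared groups without this pairing, and the fit with the replicate number as a block was an alternative. The closest arrays differed by a median of 0.205 on the log2 scale, so no array was a copy of another, and each was counted as a sample. This difference cannot show whether the samples came from separate cultures. The test was checked on simulated arrays. Features of the ephrin proteins were not analysed here.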

Additional observations from a re-analysis of the deposited data

How the results depend on the processing

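Over the alternatives run (region kept or masked after normalization, 75th percentile or no normalization, normexp with an offset of 50, dim probes left out, replicate block, trend and robust prior, the methods' t-test, outlier spots kept, the series table, each array left out, and, chosen after seeing the data, a wider mask and the block without normalization), EFNA3 stayed past the threshold, and its adjusted p was 0.0292 with normexp and 0.0278 with dim probes left out. EFNA1 passed 2-fold with the region kept (1.34, its low spots included), without si-Control replicate 2 (leaving out each array gave 0.85 to 1.01) and with the block without normalization (1.00). The count of changed ephrins was then 2 in place of 1, and 1180, 1613 and 2209 of all probes changed, in the same order. The adjusted p of EFNA1 was 0.0475 with normexp. Taking the median of a gene's probes changes nothing, since each ephrin has 1 probe. The replicate block gave EFNA1 0.90, EFNA3 1.38 and EFNA4 0.72 (EFNA4 no longer with an unadjusted p under 0.01), changed no ephrin call and no call of EPHA1, EPHA2 or EPHA10, ended the call of CRKL (-1.88) and made one of MMP1 (-1.79), which also passed with the 75th percentile, normexp, dim probes left out, the trend and robust prior, the wider mask and the block without normalization. With the region kept, EFNA2 was at 0.96 and CRKL at -0.06. With an array left out EFNA2 was at -0.20 to 0.42, negative without si-Control replicate 3, which leaves 1 si-Control value whose spread is taken from the other group. EPHA2 was at 0.92 with the region kept, at -0.10 with the 75th percentile and at -0.18 to 0.23 with an array left out, negative when si-Control replicate 1 was dropped and when si-C1GALT1-3 replicate 3 was. GRIP2 was at 0.82 with normexp, under 2-fold. MUC1 missed p under 0.01 by the methods' t-test and without si-Control replicate 1, and TMEM88 without si-C1GALT1-3 replicate 3. C1GALT1 passed with dim probes left out (-1.0). Of all probes, 1538 changed, 915 with normexp, 896 by the methods' t-test and 1135 to 1818 with an array left out. An adjusted p under 0.05 was reached by 49 probes, 545 with dim probes left out, 429 with normexp, 31 with the 75th percentile, 74 with the series table, 22 with the wider mask, 2 by the methods' t-test and 0 under the 13 other alternatives, even with outlier spots kept. The share of changed probes that rose was 62.5%, 40.2% with the region kept, 39.5% with the mask after normalization, 72.6% without normalization, 52.2% without si-Control replicate 1, 54.1% with the 75th percentile (which moved the median of all probes to -0.107) and 54.3% with normexp. The cause of these shifts was not tested.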
